A study of Mus musculus with 9 samples.

Results

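The comparison described here set microglia of amyloid-model mice in which Cx43 was targeted in microglia (called Cx43 cKO) against microglia of amyloid-model mice without that targeting (called APP/PS1). It covered the autosomal genes with a mean of at least 1 CPM (counts scaled to a library total of 1000000) over the 6 libraries of these 2 groups. This rule kept 13016 of the 18571 genes in the deposited table, and 13015 of them passed the filter on low counts and were tested. Of the other genes, 4745 were autosomal and below the minimum, 756 lay on the X or Y chromosome and 54 had no position. The rule used the level of a gene and not its difference between the groups.

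RNA was sequenced from CD45-immunopanned cells of the cortex and hippocampus of mice on the C57BL6/J background, taken at 9 months of age. The Cx43 cKO mice carried APP/PS1, Cx3cr1-CreER and 2 floxed Cx43 alleles (3 libraries). The APP/PS1 mice carried the amyloid transgenes without CreER or floxed alleles (3 libraries), and wild-type mice (WT, 3 libraries) carried none of these and are given beside the comparison. Per the labels, mice received tamoxifen by gavage at 0.1 mg/g on 5 consecutive days at 8 months, and this applies to all 3 groups. CreER was driven from Cx3cr1, a gene of microglia and of other myeloid cells, and CD45 is a surface protein of all white blood cells. The contrast therefore covers the Cx43 deletion together with the CreER allele, the floxed alleles and whatever else differs between these mice, and these cannot be told apart. The labels do not say whether the libraries of a group came from separate animals, so p-values here measure only the spread between these libraries, which may be technical.

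Cx43, the product of Gja1, is a connexin: 6 copies form a hemichannel, and hemichannels of adjacent cells dock into a gap junction through which ions and small molecules pass. Unpaired hemichannels can release ATP and other messengers, which microglia sense through purinergic receptors. In the brain Gja1 is best known as a gene of astrocytes. Microglia near amyloid plaques take up a state marked by lipid-handling and lysosomal genes such as Apoe, Trem2 and Cst7, and lower many genes of resting microglia.

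Total counts ran from 18907681 to 19565354 per library. Libraries of the same group differed by 1.8 to 3.58 times the variance that counting alone gives (Pearson statistic per degree of freedom, pairs of libraries, over genes averaging 100 counts or more), so none was a copy of another. The 3 Cx43 cKO libraries held 0, 1 and 2 counts of the Y-linked Ddx3y, whereas APP/PS1 libraries held 4170 to 4538 and WT libraries 4137 to 4258. Kdm5d was at 0 to 1 counts in Cx43 cKO and at 310 to 315 in APP/PS1, and Eif2s3y at 2 to 5 and 1901 to 2007. Uty was lower but remained detected, at 104 to 111 counts in Cx43 cKO against 577 to 614 in APP/PS1. The sex of the mice is not in the labels, and the presence of Y-linked transcripts and the genotype could not be told apart for any autosomal gene below. Defining microglial genes were high in both groups, with Csf1r at 4702 to 5567 CPM and Cx3cr1 at 1186 to 2247 CPM.

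Gja1 (GRCm38.p6, chr10:56377300-56390419) was lower in Cx43 cKO but remained detected. It stood at 27.2, 25.3 and 28.1 CPM in Cx43 cKO libraries 1 to 3, at 39.7, 37.0 and 42.5 CPM in APP/PS1 and at 34.0, 31.6 and 35.1 CPM in WT. All 3 Cx43 cKO libraries were below all 3 of both other groups. The log2 change from APP/PS1 to Cx43 cKO was -0.56 ± 0.06 (SE), with an adjusted p of 7.955e-09 in the edgeR quasi-likelihood test, and the change was -0.35 on log2(TPM + 1). A two-sided exact permutation test of the CPM values gave p = 0.1, which is the smallest that 3 libraries against 3 can give. The count covers the whole gene, and the labels do not say which exons the floxed alleles enclose. Astrocyte markers moved in the same direction from APP/PS1: 15 of the 16 listed were lower at an edgeR adjusted p under 0.05, against 28.9% of all members. Their median log2 change was -0.48 on counts and -0.28 on log2(TPM + 1), where TPM divides by transcript length. Their summed level was 714.8 to 725.5 CPM in Cx43 cKO, 937.5 to 956.9 CPM in APP/PS1 and 675.5 to 679.1 CPM in WT. Against WT, the astrocyte sum was higher in Cx43 cKO while Gja1 was lower. The part of astrocyte RNA in the fall of Gja1 was not tested. In bulk RNA, fewer cells of a type and less RNA per cell cannot be told apart.

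**Figure D1:**
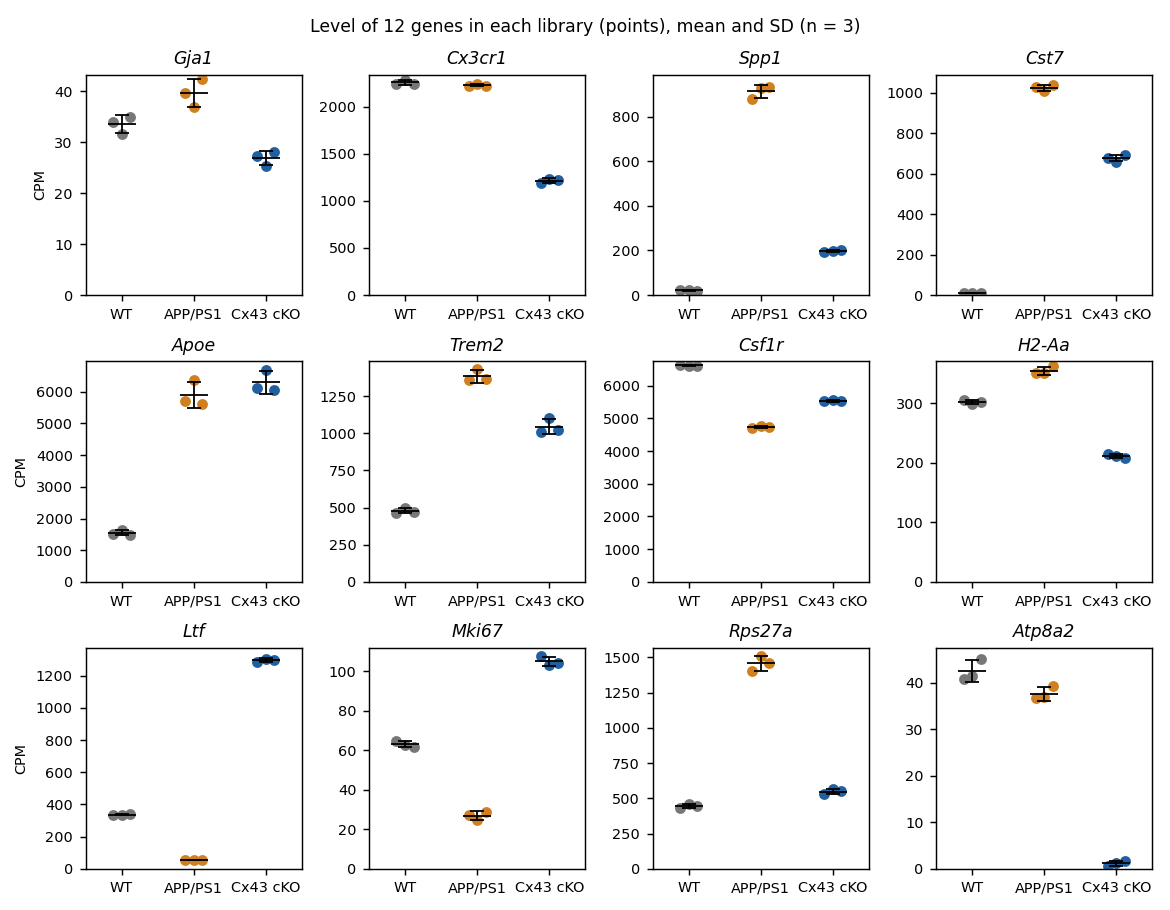
CPM of 12 genes in each of the 9 libraries (points; WT, APP/PS1 and Cx43 cKO), with the mean (wide bar) and SD (n = 3). The vertical axis starts at 0 in every panel. Gja1 and Cx3cr1 are lowest in Cx43 cKO, while Ltf and Mki67 are highest there.

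Of the 22 connexin and pannexin genes listed, 9 were among the members, including Gja1. Of the 8 besides Gja1, 4 fell, 4 were not called and none rose, with a median log2 change of -0.24. The share called was 50%, against 57.7% of all members (an edgeR adjusted p under 0.05 in either direction). With Gja1, the list median was -0.29 on counts and -0.08 on log2(TPM + 1). Gjb6, an astrocyte connexin, stood at 7.22 to 7.92 CPM in Cx43 cKO against 13.3 to 15.7 CPM in APP/PS1 (log2 change -0.92 ± 0.09). Gja4, a connexin of blood vessels, had a log2 change of -0.48 ± 0.12 (-0.26 on log2(TPM + 1)), and Gjc1 one of -0.29 ± 0.09. The call of Gjc1 was lost on log2(TPM + 1), at -0.08, and without APP/PS1 library 3, at -0.22. On the TPM scale Gja1 averaged 18.1 ± 0.99 (SD, n = 3) in Cx43 cKO and 23.3 ± 1.61 in APP/PS1, above Gjb6 at 8.34 ± 0.29 and 13.9 ± 1.17.

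At an adjusted p under 0.05 (edgeR, Benjamini-Hochberg over all tested genes; such genes are said to be called, or to have risen or fallen), 7514 members were called (57.7% of those tested), of which 3757 were higher (28.9%) and 3757 lower (28.9%) in Cx43 cKO. Most of these changes were small, since 71.3% of the called genes changed by under 1.5-fold. An adjusted p under 0.01 left 6122 called genes, and the DESeq2 Wald test called 6377. A change of at least 2-fold was called upward in 544 genes (4.18%) and downward in 322 (2.47%). Larger changes were mostly rises, with 221 higher and 16 lower at 4-fold or more, and 41 higher and 1 lower at 16-fold or more. The 3 libraries of a group did not overlap with the 3 of the other in 8090 members (62.2%). The median log2 change over all members was -0.0045. The split between rises and falls depended on the unit: limma-trend on log2(TPM + 1) called 6480 higher and 2034 lower (76.1% higher against 50% on counts), and moved the median of all members to 0.16. Calls were spread over the autosomes, from 53.2% to 64% of the members of a chromosome, with medians between -0.0836 and 0.0552. The share called rose with level, from 38.9% of members between 1 and 5 CPM to 75.1% between 100 and 500 CPM and 78.9% from 500 CPM.

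**Figure D2:**
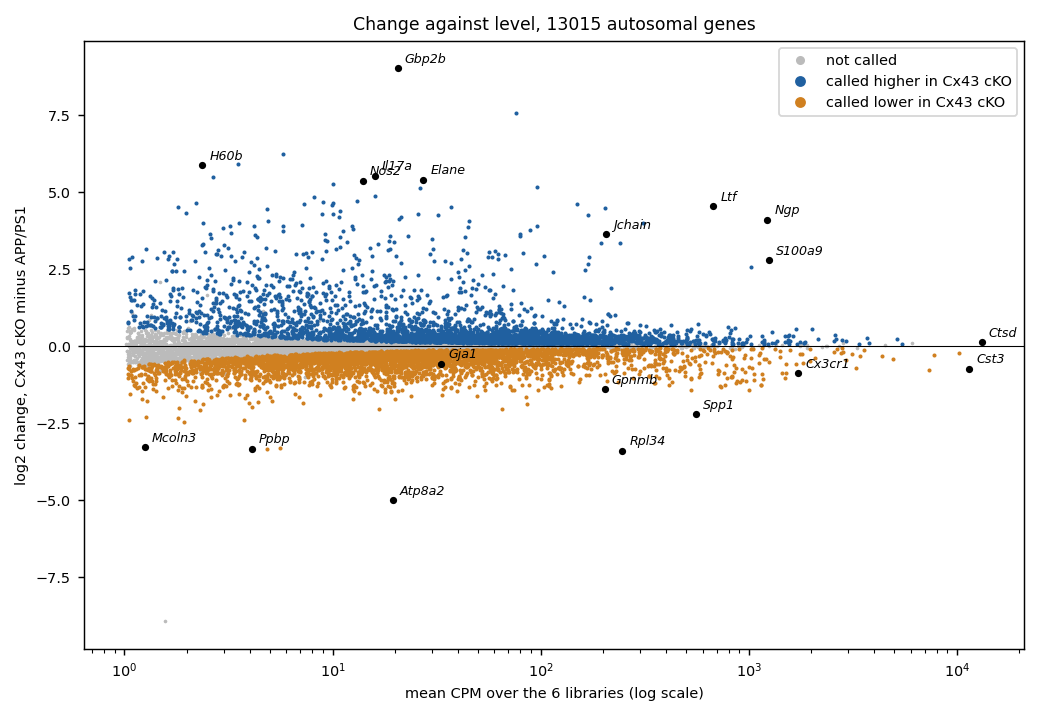
Log2 change from APP/PS1 to Cx43 cKO (vertical axis) against the mean CPM over the 6 libraries (log scale) for each tested member, with rises in blue, falls in orange and genes not called in grey. Named genes are black points; the rises of Gbp2b, Il17a and Nos2 lie at means below 100 CPM and those of Ltf and Ngp above it.

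The share called in the marker lists ran from 27.3% (oligodendrocyte) to 100% (neutrophil), against 57.7% of all members. All 37 neutrophil markers among the members rose, 36 of them at least 2-fold, with a median log2 change of 3.76. Their summed level was 11804 to 11904 CPM in Cx43 cKO, 1614 to 1688 CPM in APP/PS1 and 4604 to 4672 CPM in WT, so the Cx43 cKO sum was 7.18 times that of APP/PS1 and the 3 groups did not overlap. Of the 15 monocyte markers 11 rose and 1 fell (median 1.39), with sums of 2014 to 2080 CPM in Cx43 cKO against 1242 to 1303 CPM in APP/PS1. The part of these cells in the other differences described here was not tested.

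Ngp, a granule protein of maturing neutrophils, stood at 2317, 2305 and 2333 CPM in Cx43 cKO and at 135, 135 and 134 CPM in APP/PS1 (log2 change 4.11 ± 0.03, edgeR adjusted p 4.76e-34). Ltf, which encodes the iron-binding lactoferrin, stood at 1285, 1306 and 1301 CPM against 57.2, 54.6 and 55.1 CPM (4.54 ± 0.03). WT libraries lay between the groups for both, at 655 to 669 CPM for Ngp and 332 to 339 CPM for Ltf. S100a8 and S100a9, the subunits of calprotectin, had log2 changes of 2.57 and 2.79. Elane and Mpo, 2 genes of the early (azurophil) granules, showed another order. Elane, neutrophil elastase, stood at 51.1 to 56.0 CPM in Cx43 cKO, 1.13 to 1.45 CPM in APP/PS1 and 88.8 to 93.7 CPM in WT, and Mpo, myeloperoxidase, at 183 to 193, 4.21 to 6.13 and 292 to 315 CPM. For both, the WT libraries were above the Cx43 cKO libraries, and the APP/PS1 libraries were far below both. Prok2, a chemokine-like peptide, rose by 6.24 and Mrgpra2a by 5.91 on the log2 scale from at most 0.323 CPM in APP/PS1, where fitted changes depend on the prior count. Of the APP/PS1 libraries, library 2 alone held counts of Mrgpra2a (6), and without it the fitted change was 10.06.

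Markers of other cells moved in different directions. Among monocyte genes, Ly6c2 rose from 7.21 to 12.0 CPM in APP/PS1 to 66.8 to 81.3 CPM in Cx43 cKO (2.84 ± 0.17). Ccr2, the receptor that draws monocytes to sites of inflammation, rose by 1.39 ± 0.07. Border macrophage markers fell in 11 of 14 cases and rose in 2 (median -0.56, but -0.34 on log2(TPM + 1)); Cd209f fell from 17.9 to 20.4 CPM in APP/PS1 to 5.33 to 6.51 CPM in Cx43 cKO, while F13a1, which is also on the monocyte list, rose by 0.34. Of the 17 B cell genes 6 were members, and 3 rose (50% called, against 57.7% of all members), among them Blk and Cd79a by 3.12 and 2.64 on the log2 scale from levels of 1.51 CPM or less. Of 18 T and NK cell genes 4 rose and 11 fell (83.3% called; median -0.26, but -0.06 on log2(TPM + 1) and -0.01 with per-library offsets for GC content and the length of the longest transcript), among them Cd8b1 (-1.01) and Klrb1c (-1.80). The summed level of this list was nevertheless higher in Cx43 cKO, at 161.5 to 166.7 CPM against 146.0 to 156.3 CPM in APP/PS1. Il17a, the cytokine of interleukin-17-producing T cells, went against this list, at 31.8, 31.2 and 30.8 CPM in Cx43 cKO against 0.655, 0.646 and 0.700 CPM in APP/PS1 (log2 change 5.54 ± 0.13). The summed level above includes Il17a. The difference in Il17a was larger than the difference in the sum, so without Il17a the sum was not higher in Cx43 cKO.

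Red cell and platelet genes fell in 10 of 12 cases (91.7% called, against 57.7% of all members and 28.9% called lower; median -0.94), with sums of 216.3 to 225.0 CPM in Cx43 cKO, 404.0 to 423.7 CPM in APP/PS1 and 1360 to 1413 CPM in WT. Ppbp, a platelet chemokine, fell by 3.33 on the log2 scale, and Hbb-bs, a haemoglobin chain, fell by 1.64. Slc4a1, the red cell anion exchanger, rose by 3.29. Vessel markers fell in 13 of 16 cases and none rose (81.25% called; median -0.22, but -0.02 on log2(TPM + 1)), and neuronal markers fell in 7 of 13 and rose in 2 (69.2% called; median -0.41, but -0.20 on log2(TPM + 1)). Oligodendrocyte markers fell in 3 of 11 cases (27.3% called), with a median of -0.03 on counts and 0.158 on log2(TPM + 1), and their sums in the 2 groups overlapped, at 1471 to 1536 CPM against 1529 to 1576 CPM.

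**Figure D3:**
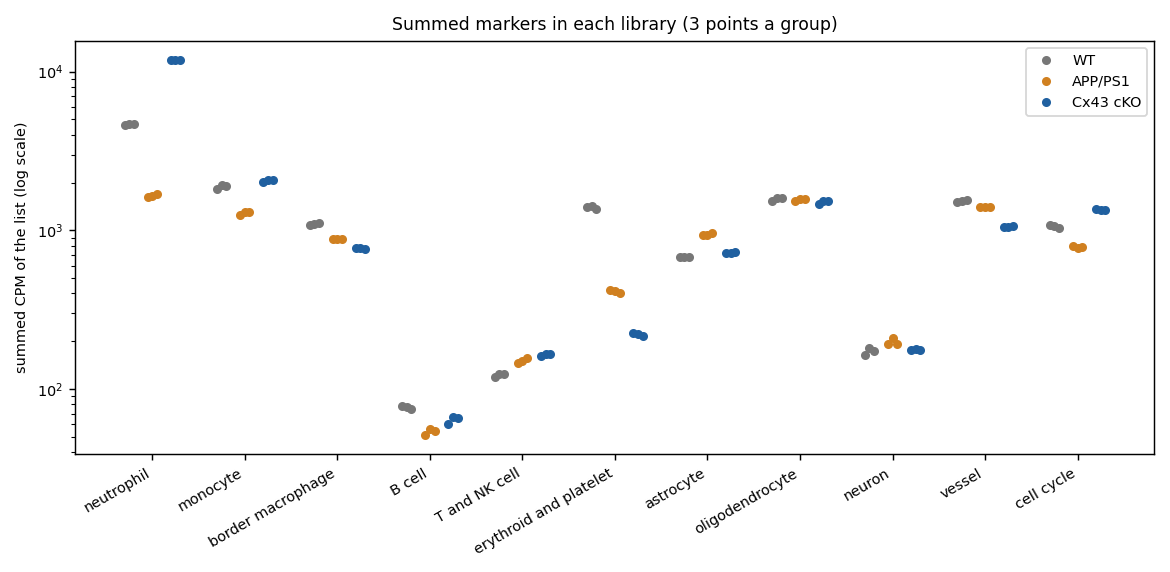
Summed CPM (log scale) of the members of each marker list and of the cell cycle list, 1 point per library, for WT, APP/PS1 and Cx43 cKO. Neutrophil markers and cell cycle genes are highest in Cx43 cKO and lowest in APP/PS1, and the 3 points of a group lie close together.

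Of 35 homeostatic genes of resting microglia 15 rose, 11 fell and 9 were not called (74.3% called, against 57.7% of all members). Their median log2 change was 0.04 on counts, 0.25 on log2(TPM + 1) and 0.0065 with offsets from the median length. Cx3cr1, the receptor for the neuronal chemokine fractalkine and the gene that drives CreER here, fell the furthest of these, from 2223, 2247 and 2223 CPM in APP/PS1 to 1186, 1231 and 1226 CPM in Cx43 cKO, with WT at 2245 to 2288 CPM (log2 change -0.88 ± 0.03, edgeR adjusted p 9.07e-21). The 3 Cx43 cKO libraries were the lowest of the 9. In Cx3cr1-CreER mice the recombinase is commonly inserted at this locus, and the part of the allele itself in the fall of Cx3cr1 cannot be told apart from other differences between the groups. Cst3, a secreted inhibitor of cathepsins and one of the most abundant microglial transcripts, fell from 13658 to 14672 CPM to 8261 to 8984 CPM (-0.73), and P2ry12, the ADP receptor that guides process movement, fell by 0.38 ± 0.04. Csf1r, the receptor for the survival factor of microglia, rose from 4702 to 4774 CPM to 5518 to 5567 CPM (0.23 ± 0.02 on counts, 0.42 on log2(TPM + 1) and 0.096 with offsets from the longest transcript), and the adhesion receptor Itgam rose by 0.56. Tmem119 had a log2 change of -0.09 ± 0.04 on counts and was just short of the threshold (edgeR adjusted p 0.0501). It was called lower with the replicate number as a block (-0.09). Its direction depended on the unit: it averaged 823.2 TPM in Cx43 cKO against 764.1 TPM in APP/PS1, a rise of 0.11 on log2(TPM + 1).

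Of 40 plaque-response members 22 fell, 11 rose and 7 were not called (82.5% called, against 57.7% of all members and 75.1% to 78.9% of those above 100 CPM). Their median log2 change was -0.21 on counts, -0.11 with offsets from the longest transcript and -0.02 on log2(TPM + 1). Spp1, which encodes the secreted matrix protein osteopontin, stood at 194, 199 and 202 CPM in Cx43 cKO, 881, 930 and 932 CPM in APP/PS1 and 19.2 to 22.8 CPM in WT (log2 change -2.20 ± 0.04, edgeR adjusted p 1.68e-26). The 3 groups did not overlap, and Cx43 cKO lay between WT and APP/PS1. Gpnmb, a lysosomal membrane glycoprotein, followed the same order with 104 to 117, 277 to 307 and 7.14 to 9.59 CPM (-1.40 ± 0.05), as did Fabp5, a fatty acid carrier, with 36.6 to 37.6, 129 to 139 and 7.34 to 8.69 CPM (-1.86 ± 0.05). Cst7, a cystatin, stood at 679, 660 and 691 CPM in Cx43 cKO against 1026, 1010 and 1038 CPM in APP/PS1 (-0.60 ± 0.03), and remained above the 10.5 to 12.1 CPM of WT.

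The lipid receptor Trem2 fell from 1357 to 1435 CPM to 1012 to 1100 CPM (-0.41 ± 0.03 on counts, -0.21 on log2(TPM + 1)), and its signalling partner Tyrobp fell by 0.86 ± 0.05. Clec7a, a receptor for fungal glucans, fell by 0.55 (-0.35 on log2(TPM + 1) and -0.32 with offsets from the longest transcript), and the integrin chain Itgax by 0.20, a call that was lost on log2(TPM + 1) (-0.01). Apoe, the main lipid carrier of the brain, was not called on counts: it stood at 6073 to 6699 CPM in Cx43 cKO and 5629 to 6360 CPM in APP/PS1, groups that overlapped, with a log2 change of 0.09 ± 0.06 (edgeR adjusted p 0.255). It was called higher on log2(TPM + 1) (0.29), with offsets from the longest transcript (0.46), with the replicate number as a block (0.094) and without APP/PS1 library 2 (0.15). Several genes of the same list rose, including Lgals3, a galectin that is also abundant in other myeloid cells (1.05 ± 0.05), Lilrb4a, an inhibitory receptor (0.72), Ank (0.46) and Lpl, lipoprotein lipase (0.37). App, the amyloid precursor gene, and Prnp, the prion protein gene, rose a little, with log2 changes of 0.20 and 0.31. Whether reads of the transgenes were counted under App is not given in the sources used here.

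Of 22 members of the purinergic list (nucleotide and adenosine receptors, nucleotide-degrading enzymes, nucleoside transporters and Calhm channel genes), 7 rose and 7 fell (63.6% called, against 57.7% of all members), with a median log2 change of -0.05 on counts and 0.146 on log2(TPM + 1). Nt5e, the enzyme that makes adenosine outside cells, rose from 2.95 to 3.18 CPM to 5.67 to 6.83 CPM, and Entpd3, another nucleotide-degrading enzyme, by 3.06 from at most 0.484 CPM. The receptor P2ry2 rose by 0.91 and the receptor P2ry14 fell by 0.42, a call that was lost on log2(TPM + 1) (-0.26). Calhm6, a gene of the calcium homeostasis modulator channel family, had the largest fall of the list, from 4.36 to 5.08 CPM to 1.62 to 3.13 CPM (-1.04 ± 0.17, but -0.66 with offsets from the longest transcript).

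Genes of lysosomes and engulfment rose in 20 and fell in 16 of 51 cases (70.6% called, against 57.7% of all members), with a median of 0.02 on counts and 0.22 on log2(TPM + 1). Among the rises, Ctsd, the most abundant cathepsin by CPM among those named here, went from 12179 to 12819 CPM to 13313 to 13950 CPM (0.12 ± 0.03, but 0.016 and not called with offsets from the median length), and Psap, Grn and Ctsa rose by 0.27, 0.34 and 0.34. Among the falls, Ctss, a cathepsin that also trims the class II invariant chain, fell from 9083 to 9616 CPM to 5314 to 5604 CPM (-0.78 ± 0.03), Asah1, acid ceramidase, fell by 0.66, and Atp6v0d2, a proton pump subunit, by 1.17.

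Complement and Fc receptor genes fell in 13 and rose in 6 of 24 cases (79.2% called, against 57.7% of all members), with a median log2 change of -0.18 on counts, 0.0069 on log2(TPM + 1) and 0.0605 with offsets from the longest transcript. C3, the central complement component, moved against the list, from 24.9, 25.2 and 27.3 CPM in APP/PS1 to 162, 164 and 170 CPM in Cx43 cKO, with WT at 62.4 to 69.1 CPM (log2 change 2.68 ± 0.05). C4b rose by 0.59 and the regulator Cd55 by 0.77. Fcer1g, the signalling chain shared by Fc receptors, fell by 0.91 ± 0.03, and Fcrls, a microglial Fc receptor-like gene, by 0.34.

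Of 15 class II genes 11 fell and none rose (73.3% called, against 57.7% of all members; median -0.31 on counts, -0.11 on log2(TPM + 1) and -0.16 with offsets from the longest transcript). H2-Aa, a class II chain, stood at 215, 211 and 209 CPM in Cx43 cKO, 350, 351 and 362 CPM in APP/PS1 and 298 to 305 CPM in WT (-0.75 ± 0.03), so Cx43 cKO was below both other groups. The co-stimulatory receptor Cd40 fell by 0.64. Of 23 class I genes 6 rose and 11 fell (73.9% called), with a median of -0.06 on counts and 0.132 on log2(TPM + 1). B2m, the light chain of class I, fell from 3880 to 4152 CPM to 2441 to 2531 CPM (-0.70, but -0.09 with offsets from the longest transcript), while the peptide transporter genes Tap1 and Tap2 rose by 0.49 and 0.25, and the heavy chain H2-D1 by 0.19.

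Interferon response genes rose more often than they fell. Of 58 members 31 rose, 12 fell and 15 were not called (74.1% called, against 57.7% of all members; median 0.18 on counts and 0.39 on log2(TPM + 1)). Oas3, an antiviral 2′-5′ oligoadenylate synthetase, stood at 28.8, 29.7 and 29.7 CPM in Cx43 cKO, 5.84, 6.67 and 5.39 CPM in APP/PS1 and 12.9 to 13.9 CPM in WT (log2 change 2.30 ± 0.08, edgeR adjusted p 3.87e-19). Rsad2, the antiviral enzyme viperin, rose from 18.2 to 19.0 CPM to 61.7 to 63.0 CPM (1.75 ± 0.055), Ifitm1, a membrane protein that limits virus entry, by 2.33 ± 0.075, and Oasl1 by 1.48 ± 0.095. In the opposite direction, Ifi27l2a fell by 1.26 ± 0.06 and Bst2, the tether that holds budding virus at the cell surface, by 0.90 ± 0.04. The list thus held changes of more than 1 log2 unit in both directions.

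Promoters of interferon genes were searched for the core of the interferon-stimulated response element, GAAANNGAA, on both strands (GRCm38.p6, overlapping matches counted). The search covered the 250 bases before each start listed for a gene. A gene with several promoters was counted if any of them held the core. The promoter table matched 45 of the 58 members. The core was present for 11 of 25 genes that rose (44%), 3 of 7 that fell (42.9%) and 12 of 13 that were not called (92.3%), against 806 of 10395 tested members with a promoter (7.75%). Counted by promoter, the shares were 34.4%, 37.5% and 86.7%, against 6.37%. A match is a description of these letters only, and these shares were not tested. The sequences below were chosen after their log2 changes were seen: 3 genes that rose strongly (Oas3, Rsad2 and Ifitm1), 1 that fell (Bst2), and Gbp2b, which rose most of all members. Capitals mark the core or its reverse complement.

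Oas3 promoter, chr5:120777660-120777909, minus strand: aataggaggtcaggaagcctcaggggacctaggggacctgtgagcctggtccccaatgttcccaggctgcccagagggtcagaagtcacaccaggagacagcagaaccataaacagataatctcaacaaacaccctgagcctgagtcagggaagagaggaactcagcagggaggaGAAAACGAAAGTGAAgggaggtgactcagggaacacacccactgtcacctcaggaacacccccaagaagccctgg
Rsad2 promoter, chr12:26456453-26456702, minus strand: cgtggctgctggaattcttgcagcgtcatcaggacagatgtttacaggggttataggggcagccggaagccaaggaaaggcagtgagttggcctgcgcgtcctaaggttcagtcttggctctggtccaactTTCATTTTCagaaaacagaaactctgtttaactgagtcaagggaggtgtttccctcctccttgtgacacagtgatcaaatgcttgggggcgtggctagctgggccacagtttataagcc
Ifitm1 promoter, chr7:140967826-140968075, plus strand: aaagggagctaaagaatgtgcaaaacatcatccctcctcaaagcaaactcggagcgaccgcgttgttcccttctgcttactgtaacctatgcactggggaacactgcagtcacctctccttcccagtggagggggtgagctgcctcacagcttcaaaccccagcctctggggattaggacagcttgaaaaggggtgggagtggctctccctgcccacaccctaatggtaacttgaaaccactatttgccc
Bst2 promoter, chr8:71537473-71537722, minus strand: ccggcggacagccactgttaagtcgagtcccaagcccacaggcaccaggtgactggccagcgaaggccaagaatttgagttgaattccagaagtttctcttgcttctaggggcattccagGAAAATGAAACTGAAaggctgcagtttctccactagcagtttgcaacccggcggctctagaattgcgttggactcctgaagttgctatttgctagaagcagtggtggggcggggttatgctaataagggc
Gbp2b promoter, chr3:142594597-142594846, plus strand: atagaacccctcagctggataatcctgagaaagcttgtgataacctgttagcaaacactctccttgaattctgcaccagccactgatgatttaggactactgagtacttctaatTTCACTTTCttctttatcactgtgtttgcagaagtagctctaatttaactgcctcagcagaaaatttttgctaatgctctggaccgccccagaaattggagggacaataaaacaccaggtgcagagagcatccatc

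Oas3 and Bst2, which changed in opposite directions, each held 2 overlapping copies of the core, starting 75 and 69 bases and 130 and 124 bases before the start. Rsad2 and Gbp2b each held 1, at 119 and 136 bases, and Ifitm1 held none in this window.

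Inflammatory mediators fell in 30 and rose in 17 of 59 cases (79.7% called, against 57.7% of all members), with a median log2 change of -0.08 on counts and 0.113 on log2(TPM + 1). Chemokine ligands were among the falls: Ccl6 went from 702, 714 and 715 CPM in APP/PS1 to 345, 340 and 340 CPM in Cx43 cKO (-1.06 ± 0.03), and Ccl8, Ccl7 and Ccl24 fell by 1.73, 1.26 and 0.96. Il1a, which encodes interleukin-1 alpha, fell from 5529 to 5816 CPM to 4139 to 4333 CPM (-0.42 on counts, -0.23 on log2(TPM + 1) and -0.12 with offsets from the longest transcript). Among the rises, Nos2, the inducible nitric oxide synthase, stood at 24.3, 29.97 and 27.7 CPM in Cx43 cKO against 0.492, 0.861 and 0.593 CPM in APP/PS1 (5.38 ± 0.16). Il1rn, the interleukin-1 receptor antagonist, rose by 2.04 ± 0.06. The chemokine receptor Cxcr2 (2.75) and the decoy receptor Il1r2 (2.24) are also on the neutrophil list.

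Cell cycle genes rose almost throughout. Of 40 members 37 rose, 28 of them at least 2-fold, and 1 fell, with a median log2 change of 1.68. The share called was 95%, against 57.7% of all members. Over all members, 28.9% rose and 4.18% rose at least 2-fold. Their summed level was 1336 to 1362 CPM in Cx43 cKO, 777.1 to 794.0 CPM in APP/PS1 and 1039 to 1075 CPM in WT. Rrm2, a subunit of the enzyme that makes deoxynucleotides, stood at 21.9, 20.9 and 20.9 CPM in Cx43 cKO, 3.71, 3.66 and 3.56 CPM in APP/PS1 and 16.6 to 17.8 CPM in WT (2.54 ± 0.09, edgeR adjusted p 5.50e-19). Kif20a and Aurkb, which act in cell division, rose by 2.33 and 2.31, and Cdc20, an activator of mitotic exit, by 2.21. Pcna, the sliding clamp of DNA replication, fell from 191 to 202 CPM to 160 to 162 CPM (-0.28). The cell cycle sum had the order of the neutrophil sum, with Cx43 cKO highest and APP/PS1 lowest, and which cells carried these transcripts was not tested.

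Genes of small housekeeping subunits fell together. All 77 cytosolic ribosomal protein genes fell, 30 of them at least 2-fold (median log2 change -0.88; 57.7% of all members were called and 28.9% fell), and their summed level was 31905 to 32521 CPM in Cx43 cKO, 57251 to 58759 CPM in APP/PS1 and 27483 to 27825 CPM in WT. Rps27a, a ribosomal protein made as a fusion with ubiquitin, stood at 530, 563 and 551 CPM in Cx43 cKO, 1405, 1510 and 1459 CPM in APP/PS1 and 432 to 458 CPM in WT (-1.41 ± 0.03, edgeR adjusted p 3.37e-23). Of 77 respiratory chain genes 71 fell and 2 rose (94.8% called, median -0.78). Cox6c, a subunit of cytochrome c oxidase, fell from 136 to 148 CPM to 50.02 to 54.4 CPM (-1.43), while Atp5b, the catalytic chain of ATP synthase, had a log2 change of 0.06 whose call was lost without any 1 of the 6 libraries (0.057 to 0.074). Proteasome subunits fell in 25 and rose in 4 of 33 cases (87.9% called, median -0.41 on counts and -0.22 on log2(TPM + 1)), with Psmb1 at -0.95 and Psmd3 at 0.26.

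These lists consist of short transcripts, and change varied with transcript length over all members. With length taken as the median over a gene's transcripts, the shortest 10% of the members (median 578.8 nt) had a median log2 change of -0.116 and the longest (4482 nt) 0.0346. With the longest transcript of each gene, a definition chosen after the first trend was seen, the shortest 10% (1110 nt) had a median of -0.418, with 824 genes lower and 141 higher of 1286, and the longest 10% (8475 nt) had 0.0252. Per-library offsets for GC content and length moved the ribosomal median to -0.82 with the first definition and -0.57 with the second, the respiratory chain median to -0.73 and -0.42, and the proteasome median to -0.34 and -0.16. The 3 medians stayed below 0 under both. With the second definition, falls of several abundant genes described above were smaller but still called: the log2 change became -0.20 for Cst7, -0.33 for Ctss, -0.38 for Cst3, -0.49 for Tyrobp, -0.53 for Fcer1g, -0.57 for Ccl6 and -0.15 for P2ry12. It also became -0.93 for Rps27a, -0.73 for Ccl7, -0.56 for Ccl24, -0.54 for Bst2, -0.54 for Hspe1, -0.44 for Ch25h, -0.15 for Serinc1 and -0.10 for Pcna, and the rises of Srebf2, Tap2, Fosb and Ctsa became 0.27, 0.11, 0.20 and 0.22. On log2(TPM + 1), where the median of all members was 0.16, the small rises of App, Prnp, Psap, Grn, Lpl and H2-D1 became 0.39, 0.50, 0.47, 0.53, 0.57 and 0.39, and the falls of Abca1, Fcrls, Cd40, P2ry12 and Mobp became -0.18, -0.15, -0.39, -0.19 and -0.16. The part of library preparation in this trend was not tested.

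**Figure D4:**
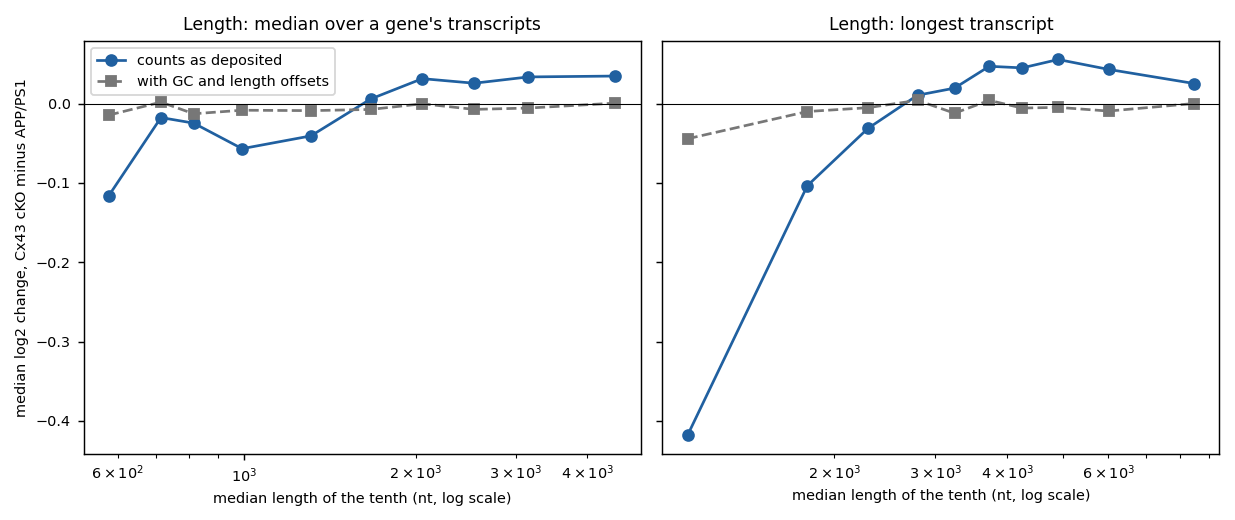
Median log2 change from APP/PS1 to Cx43 cKO in 10 equal groups of members by transcript length (log scale, nt), with length as the median over a gene's transcripts (left) and as its longest transcript (right). Blue circles are counts as deposited and grey squares are the fit with GC and length offsets; the fall in the shortest 10% is larger on the right.

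Rpl34 fell more than any other listed ribosomal gene, from 466, 450 and 432 CPM in APP/PS1 to 50.3, 38.4 and 39.7 CPM in Cx43 cKO (-3.39 ± 0.08), with WT at 165 to 172 CPM. Its near-identical copy Rpl34-ps1 could take up part of its reads. Summed over Rpl34 and Rpl34-ps1, the level was 194.7 ± 9.59 CPM (SD, n = 3) in Cx43 cKO, 450.4 ± 17.1 CPM in APP/PS1 and 169.3 ± 3.95 CPM in WT, a log2 ratio of -1.21, which lies within the range of the other ribosomal genes. This sum was close to Rpl34 alone in APP/PS1 and WT and well above it in Cx43 cKO. How reads were divided between Rpl34 and Rpl34-ps1 was not tested, and the value of Rpl34 alone is uncertain.

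Glycolysis and hypoxia genes rose in 19 and fell in 8 of 33 cases (81.8% called, against 57.7% of all members), with a median of 0.24 on counts and 0.43 on log2(TPM + 1). Slc2a3, a glucose transporter, rose from 24.4 to 25.8 CPM to 87.6 to 90.5 CPM (1.84 ± 0.05), the lactate exporter Slc16a3 by 0.97, and Hk3, a hexokinase of myeloid cells, by 0.76. Cholesterol genes rose in 14 and fell in 7 of 33 cases (63.6% called), and their median was 0.07 on counts, 0.26 on log2(TPM + 1) and 0.019 without APP/PS1 library 3. The transcription factor Srebf2 rose by 0.42 and the lipid droplet gene Plin2 by 0.50, while the exporter Abca1 fell by 0.38 and Ch25h by 0.85. Early response and heat shock genes rose in 14 and fell in 8 of 36 cases (61.1% called, against 57.7% of all members), with a median of 0.08 on counts and -0.0206 with offsets from the median length. Hspe1, a mitochondrial chaperonin, fell by 1.02, and Fosb and Klf4 rose by 0.33 and 0.54.

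**Figure D5:**
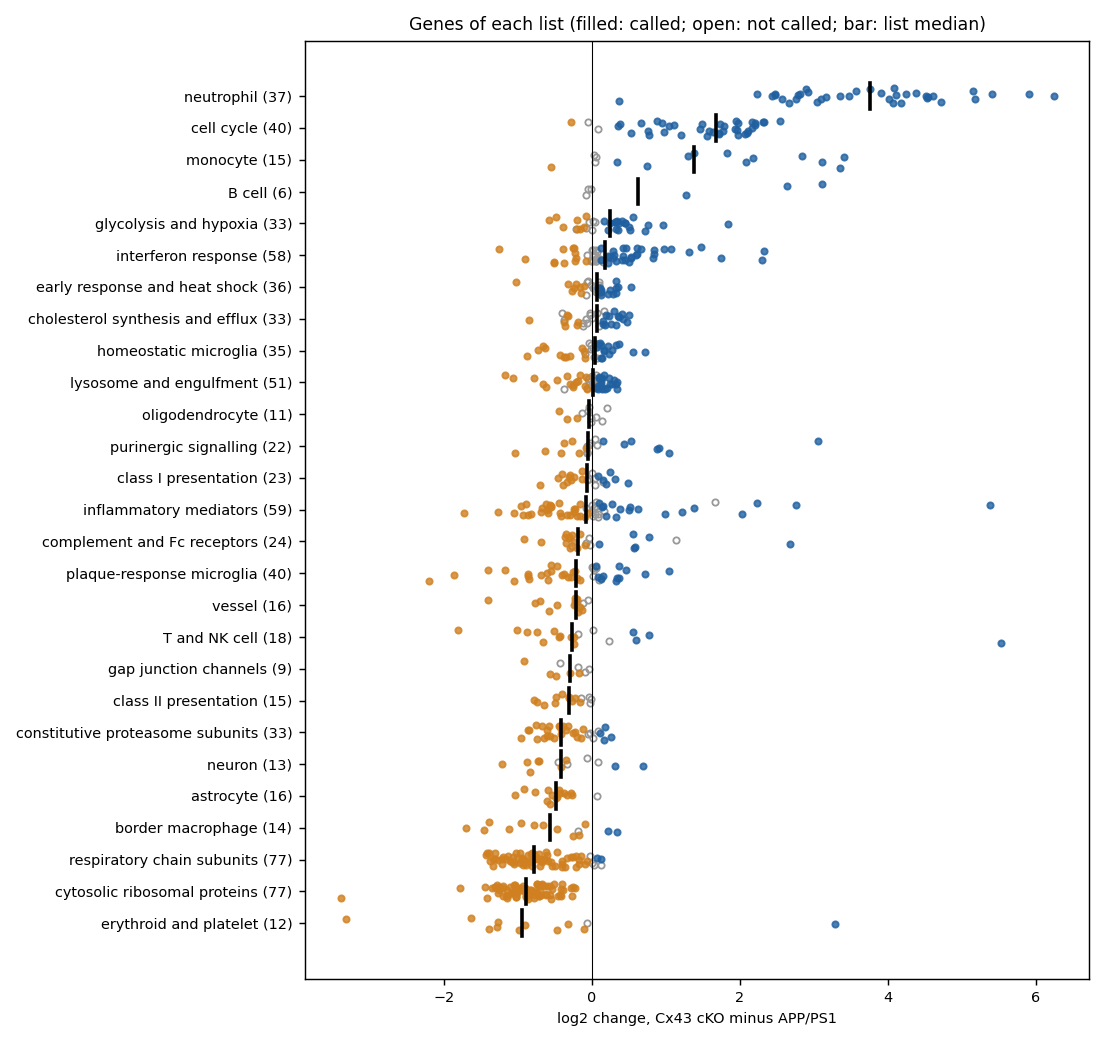
Log2 change from APP/PS1 to Cx43 cKO (horizontal axis) of each tested gene in each list, with the number of genes in brackets, filled points called (blue higher, orange lower), open points not called, and a black bar at the list median. All neutrophil genes lie to the right of 0 and all ribosomal genes to the left. Of the cell cycle genes 37 of 40 rose, and of the respiratory chain and astrocyte genes 71 of 77 and 15 of 16 fell.

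Some of the largest changes were in genes outside these lists. Gbp2b, a guanylate-binding protein gene of the interferon-inducible family, held 4 counts in all 3 APP/PS1 libraries together and 2344 in the 3 Cx43 cKO libraries, a ratio of 568 (95% counting interval 222 to 2090), with 0.0999 CPM or less in WT. H60b, a ligand of the killer-cell receptor NKG2D, had 266 against 4 counts (ratio 64.5, interval 24.9 to 238), and Lin28a, an RNA-binding regulator of let-7, had 298 against 6 (ratio 48.2, interval 21.9 to 132). These intervals cover counting error only. Jchain, which joins antibody monomers, stood at 404, 365 and 376 CPM in Cx43 cKO against 32.1, 29.9 and 30.5 CPM in APP/PS1 and 43.6 to 48.2 CPM in WT (3.63 ± 0.05). Cd163l1, a scavenger receptor-like gene, rose by 5.26 ± 0.15.

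Atp8a2, which encodes a phospholipid flippase, had the largest fall of any gene named here, to 0.636, 1.31 and 1.56 CPM in Cx43 cKO from 36.8, 36.9 and 39.3 CPM in APP/PS1 and 40.7 to 45.2 CPM in WT (log2 change -4.999 ± 0.12, edgeR adjusted p 2.65e-21). All 3 Cx43 cKO libraries were far below the 6 others. Lrmda fell by 3.32 ± 0.16 and Mcoln3, a lysosomal cation channel, by 3.28 ± 0.36 from 2.21 to 2.35 CPM. Apoc4, an apolipoprotein gene, fell from 5.66 to 6.83 CPM to 1.04 to 1.41 CPM and was at 0.049 CPM or less in WT. Zfp966 fell by 3.33 ± 0.83, with 0.053, 2.56 and 0 CPM in Cx43 cKO, so that 1 of these libraries stood apart from the others. Without that library, Cx43 cKO 2, the log2 change was -8.08. With limma-voom it was -5.59, and in the fit of the 6 libraries alone it was -3.33 and not called.

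Genes near Gja1, the floxed gene, and near Cx3cr1, where CreER is commonly inserted, were set beside all members. Within 5 Mb of Gja1, 27 of 42 members were called (64.3%), and within 5 Mb of Cx3cr1, 46 of 76 (60.5%), against 57.7% of all members. Both medians lay near 0, at -0.07 and -0.01, and changed sign on log2(TPM + 1). Of the 10 tested genes nearest Gja1, all members, 5 on each side, 6 fell, 4 were not called and none rose. Fabp7, a fatty acid carrier of astrocytes and radial glia, fell from 9.56 to 11.3 CPM to 2.33 to 4.69 CPM (-1.64 ± 0.16), Pkib fell by 0.86 and Serinc1 by 0.33, while Hsf2 (-0.10) and Smpdl3a (0.09, but called at 0.28 on log2(TPM + 1) and 0.17 with offsets from the median length) were not called. On the other side, Fam184a (-0.79), Asf1a (-0.40) and Man1a (-0.10) fell. On log2(TPM + 1) Fam184a was not called (-0.16) and Man1a was at 0.09, and with offsets from the longest transcript Asf1a was not called (-0.17). The call of Man1a was also lost in 7 other settings, among them DESeq2 size factors, library totals and the DESeq2 Wald test. Further along, Lilr4b, a myeloid receptor, rose by 1.49 on the log2 scale and Pln, a regulator of the calcium pump of muscle, fell by 1.48. Of the 9 members among the 10 tested genes nearest Cx3cr1, 3 rose, 2 fell and 4 were not called. Among the rises, Ttc21a (0.50) lost its call in 9 settings, including the DESeq2 Wald test and the fits with GC and length offsets. Wdr48 rose by 0.27 and Slc25a38 by 0.21, Mobp fell by 0.33, and Csrnp1 (0.07, but called at 0.27 on log2(TPM + 1) and -0.04, not called, with offsets from the median length) was not called. The genes within 5 Mb of Cx3cr1 that changed most were Entpd3, Lyzl4, Kif15, Ccr2 and Ccr1, with log2 changes of 3.06, 2.26, 2.08, 1.39 and 1.21.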

How the data were processed

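Poly-A RNA of CD45-immunopanned cells was sequenced with 50-nt single-end reads, and the 9 libraries fell into 3 groups of 3 by labelled genotype. Per the file headers, the deposited table holds TPM, FPKM, estimated counts and normalised counts (a signal) per library, as well as the authors' group means, which were not used. The submitters' processing notes name HISAT, Bowtie2, DESeq2 and the build GRCm38.p6 without roles or versions. The counting program, the annotation and the filters are not given in the sources used here. The authors' estimated counts carry decimals and were rounded to whole numbers; the design had assumed plain counts. The authors' FPKM and normalised signal were not used, and their TPM served as an alternative unit.

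The edgeR 4.0.16 quasi-likelihood test (R 4.3.3) used TMM scaling, filterByExpr by group, a robust fit, all 9 libraries and a mean per group, with Benjamini-Hochberg adjustment over 14696 tested genes and a threshold of 0.05. CPM values use TMM-scaled library sizes. Total counts were 18907681 to 19565354, and the biological coefficient of variation was 3.14%. Positions were those of RefSeq on GRCm38.p6 (18517 of 18571 genes matched), and transcript length and GC content from GENCODE mouse release 21. The steps were tested on simulated counts with few changed genes and no trend with transcript length or replicate number, a simpler setting than these data.

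The members, gene lists and tests were chosen with earlier results of these data known. Named genes other than neighbours and a fixed set had to be called, with no overlap between the groups and no gene-model or pseudogene name. They were the 12 largest rises and falls in log2 change, the 8 largest at a mean of at least 100 CPM, the 8 largest in CPM, up to 4 in each direction from each list, and the 5 largest changes within 5 Mb of Gja1 and of Cx3cr1. The 5 neighbours on each side of both loci and a fixed set of 15 genes were named whatever their values. The Rpl34 and Rpl34-ps1 sum, the genes whose promoters are printed and the Y-linked genes other than Ddx3y were chosen after their values were seen. A few genes meeting this rule are not reported here.

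The alternatives were DESeq2 1.42.0 size factors, library totals, the DESeq2 Wald test, limma-voom (limma 3.58.1), no filter, a minimum of 5 CPM, the 6 libraries alone, an adjusted p of 0.01, limma-trend on log2(TPM + 1) and log2(TPM + 0.1), the replicate number as a block, offsets for 10 bins of GC content and 10 of length with and without the block, and leaving out each Cx43 cKO and APP/PS1 library. Length was first the median over a gene's transcripts; its longest transcript was added after that result was seen, with and without the block.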

Additional observations from a re-analysis of the deposited data

How the results depend on the processing

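The total of 7514 called genes stayed between 6377 (DESeq2 Wald test) and 8521 (log2(TPM + 0.1)) over all alternatives that kept the members and the threshold, was 6122 at an adjusted p under 0.01, and lay between 6819 and 7205 when single libraries were left out. Limma-trend on log2(TPM + 1) and log2(TPM + 0.1) gave 6480 and 6479 genes higher and 2034 and 2042 lower in place of 3757 and 3757, with 119 and 163 at least 2-fold lower in place of 322. A minimum of 5 CPM left 354 genes at least 2-fold higher and 206 lower. Offsets from the longest transcript, chosen after the trend with the median over transcripts was seen, left 157 at least 2-fold lower, or 155 with the replicate block. Offsets from the median length gave 7553 called genes and 248 at least 2-fold lower, or 248 with the block.

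Of 4427 values of 233 named genes, 4294 kept their direction and side of the threshold, 72 lost and 38 gained the call, and 23 of 8 genes reversed, 19 of them from a value that was not called. On the TPM scales (pseudocount 1, then 0.1) these were Man1a (0.0946, 0.0961), Tmem119 (0.1072, 0.1073), Hsf2 (0.0729, 0.0789), Msl3l2 (0.0881, 0.0961) and Myrip (0.0728, 0.0877). With longest-transcript offsets, without and with the block, they were H2-M3 (0.0160, 0.0161), Hsf2 (0.0122, 0.0120), Csrnp1 (-0.0058, -0.0058) and Gorasp1 (-0.0216, -0.0215). With median-length offsets they were Hsf2 (0.0130, 0.0126) and Csrnp1 (-0.0402, -0.0404). Gorasp1 ranged from -0.0027 to 0.155 without single libraries. List medians reversed on the TPM scales for purinergic (0.146, 0.148), complement (0.0069, 0.0072), class I (0.1315, 0.1318), inflammatory (0.1132, 0.1136) and oligodendrocyte genes (0.158, 0.164), within 5 Mb of Gja1 (0.1205, 0.1287) and within 5 Mb of Cx3cr1 (0.138, 0.197). The Cx3cr1 window, at -0.01, also reversed with library totals (0.0186), limma-voom (0.0020), a 5 CPM minimum (0.0521) and in 3 of the 6 fits without a single library (range over the 6, -0.04715 to 0.0285). Complement also reversed with longest-transcript offsets (0.0605, 0.0605 with the block), heat shock genes with median-length offsets (-0.0206, -0.0206 with the block), and B cell genes at 5 CPM (-0.0445). The cause of these reversals was not tested.

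The replicate block gave 8249 called genes (4193 higher, 4056 lower; 7504 shared with the fit without it) and a biological coefficient of variation of 0.988% in place of 3.14%. Deviations of same-numbered libraries correlated at 0.223, 0.205 and 0.0733 over 10897 genes, and 5 of the 6 libraries correlated best with their own number, which is a hint from the data and not the design. Depth limits genes near 1 CPM, where a call needs a larger change.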
